A study of Mus musculus with 12 samples.

Results

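Genes of cholesterol and fatty acid synthesis were followed in mouse embryonic stem cells (ESCs) with and without P53, in serum and in 2i. The set was a list of 31 gene symbols: the enzymes that build cholesterol from acetyl-CoA, the proteins that sense sterols and control these enzymes, and the enzymes that supply acetyl-CoA and make, desaturate and elongate fatty acids. All 31 were among the 24881 symbols of the expression table. Of these, 30 passed the filter on low values (a mean over the libraries of at least 0.5 FPKM, fragments per kilobase of transcript scaled by mapped fragments, a unit in which levels of genes of different length can be compared) and were tested among 12572 genes.

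The cells were R1 ESCs that carry the FUCCI reporters, fluorescent proteins that mark cell cycle phases, and all of them were sorted by flow cytometry in G1 phase. WT cells were compared with P53-/- cells, in which *Trp53* had been cut with CRISPR-Cas9 and single cells had been expanded into clones. Clones 1 and 2 were used for RNA sequencing, and the table does not say which library came from which clone. Both genotypes were grown either in medium with serum and leukemia inhibitory factor (LIF) or in 2i, a serum-free medium with LIF and inhibitors of MEK and of glycogen synthase kinase, a condition called the ground state. Each of the 4 groups (WT 2i, P53-/- 2i, WT serum and P53-/- serum) had 2 libraries, numbered here in the order of their columns. Of 12 labelled samples, 4 (P21 knockout cells and another pair of WT 2i samples) were not analysed here. No source says that the libraries of a group came from separate cultures, so the p values measure the spread between these libraries.

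Cholesterol is built from acetyl-CoA through mevalonate, isoprenoid diphosphates, squalene and a series of sterols. Transcription of these enzymes is driven by the SREBP factors, which are held in the endoplasmic reticulum by SCAP and the INSIG proteins when sterols are plentiful and are moved to the Golgi and cleaved when sterols are scarce. On the promoters of these genes SREBP is known to act beside NF-Y, a factor that binds the CCAAT box. Fatty acids are built from the same acetyl-CoA and are controlled in part by the same factors.

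The promoters of the 4 genes with the largest rise in WT 2i over WT serum among members with 1 promoter in the RefSeq table, and of *Elovl6*, which had the largest fall among them, are shown because the CCAAT box was the most frequent of the 3 motifs searched in these genes. Each is the 250 bases before the RefSeq start, 5′ to 3′ on the strand of the gene, with CCAAT or its reverse complement ATTGG in capitals.
Tm7sf2: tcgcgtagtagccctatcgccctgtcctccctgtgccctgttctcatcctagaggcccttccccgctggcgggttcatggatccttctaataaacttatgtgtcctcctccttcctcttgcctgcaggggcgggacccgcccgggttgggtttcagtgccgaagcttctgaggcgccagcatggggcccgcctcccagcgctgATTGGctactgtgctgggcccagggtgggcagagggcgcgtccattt
Insig1: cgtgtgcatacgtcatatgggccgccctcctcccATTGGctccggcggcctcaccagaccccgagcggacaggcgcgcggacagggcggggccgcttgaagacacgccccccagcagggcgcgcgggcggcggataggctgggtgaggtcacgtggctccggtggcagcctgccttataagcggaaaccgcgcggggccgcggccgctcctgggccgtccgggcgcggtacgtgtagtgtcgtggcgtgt
Mvk: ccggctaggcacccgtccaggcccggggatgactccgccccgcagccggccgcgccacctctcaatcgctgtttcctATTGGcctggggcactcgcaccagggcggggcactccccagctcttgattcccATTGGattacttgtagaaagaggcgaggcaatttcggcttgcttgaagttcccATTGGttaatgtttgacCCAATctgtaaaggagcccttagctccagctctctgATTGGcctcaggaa
Acss2: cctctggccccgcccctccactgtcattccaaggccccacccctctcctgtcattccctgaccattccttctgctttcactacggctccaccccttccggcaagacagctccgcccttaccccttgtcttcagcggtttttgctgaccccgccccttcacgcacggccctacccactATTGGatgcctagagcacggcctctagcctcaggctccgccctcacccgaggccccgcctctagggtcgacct
Elovl6: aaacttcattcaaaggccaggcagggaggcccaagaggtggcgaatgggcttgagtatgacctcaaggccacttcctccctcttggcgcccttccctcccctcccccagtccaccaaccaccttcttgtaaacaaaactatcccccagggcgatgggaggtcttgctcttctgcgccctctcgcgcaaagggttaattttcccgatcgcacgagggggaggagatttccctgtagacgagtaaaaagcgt
The windows lie at chr19:6067851-6068100, minus strand (*Tm7sf2*), chr5:28071162-28071411, plus strand (*Insig1*), chr5:114444019-114444268, plus strand (*Mvk*), chr2:155517793-155518042, plus strand (*Acss2*) and chr3:129532136-129532385, plus strand (*Elovl6*). Coordinates are of GRCm38.p6. *Mvk* held 5 boxes, *Tm7sf2*, *Insig1* and *Acss2* held 1 each, and *Elovl6* held none. *Insig2*, which had the largest fall of all members in WT, has 3 promoters and so is not printed. CCAAT was found for it too.

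Of the 31 members, 25 had a promoter in the RefSeq table, matched by symbol. CCAAT, searched on both strands in the 250 bases before the start, was found for 20 of these 25 genes (80%), against 41.5% of the 9765 tested genes with a promoter and 37.5% of all 27025 genes of the table. Genes with several promoters have more room for a match. Among genes with a single promoter, 16 of 20 members (80%) had the box against 38.4% of 7794 tested genes, and 9 members (45%) had at least 2 boxes against 15% of tested genes. The members without the box were *Acat2*, *Scap*, *Acly*, *Acaca* and *Elovl6*. CACGTG, the E-box form that SREBP1 can also bind, was found for *Hsd17b7*, *Sc5d*, *Dhcr7*, *Insig1* and *Scap*, 20% of members against 10.4% of tested genes. TCACNCCAC, a strict form of the sterol response element, was found for *Hmgcs1* alone, 4% of members. It was found for 1.25% of tested genes and 1.22% of all genes of the table. *Hmgcs1* was itself below the filter on low values, so no tested member held this form. The member shares above count it too. The match is shown in capitals with 30 bases on each side.
Hmgcs1: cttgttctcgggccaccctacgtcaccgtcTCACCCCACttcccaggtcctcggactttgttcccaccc
This window lies at chr13:119690184-119690252, plus strand (GRCm38.p6), and the match begins 137 bases before the start. The *Hmgcs1* promoter also held CCAAT. Both motifs together were thus found for 4% of member genes, which is this 1 gene that was not tested. They were found for 0.399% of tested genes and 0.392% of all genes of the table. None of the 3 motifs contains another. These shares are descriptions and say nothing of binding.

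**Figure D1:**
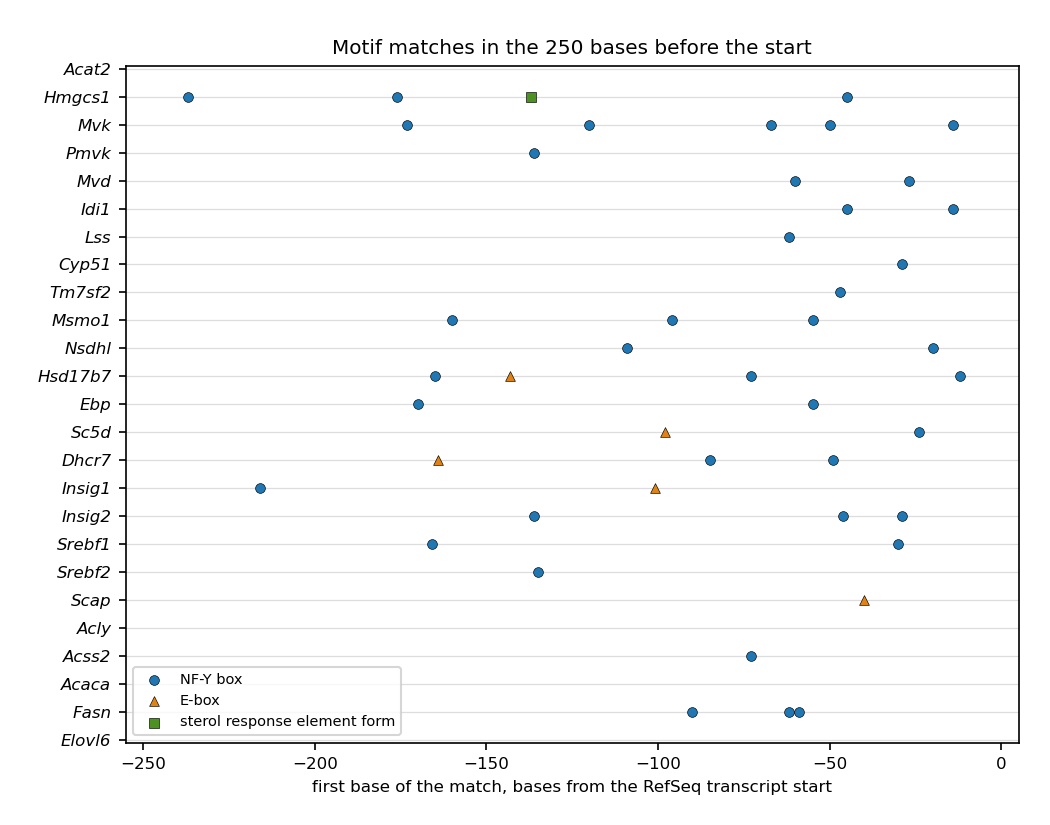
Motif matches in the 250 bases before the RefSeq start of the 25 members with a promoter. The horizontal axis is the distance of the first base of a match from the start in bases, circles are CCAAT boxes, triangles are CACGTG and the square is TCACNCCAC. A gene with several promoters has them on 1 row. CCAAT boxes appear on the rows of 20 genes, 5 of them on the row of *Mvk*.

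The number of fragments, estimated from the steps between low values, lay between 5100000 and 12900000, up to a factor common to all libraries, and 15181 to 15792 genes had a value above 0. In 2i, 92.7% to 94% of the summed FPKM came from small RNA genes, and in serum 97.4% to 99.4%. *Trp53* was at 1.88 and 7.25 FPKM in the P53-/- libraries of 2i and at 3.68 and 16.8 in those of serum, below every WT library (26.8 to 77.6). The P53 target *Cdkn1a* was lower in P53-/- by 2.24 (2i) and 2.18 (serum) on the log2 scale, with limma adjusted p values of 0.00218 and 0.00601. Summed over 10 pluripotency markers, libraries had 2267 to 2458 FPKM in WT 2i, 1881 to 1902 in P53-/- 2i and 2311 to 2507 in serum. The sum hides differences between the cultures. In WT, *Pou5f1* was called higher in 2i (log2 fold change 0.80). *Sox2* (−0.60), *Tdgf1* (−0.70), *Sall4* (−1.85) and *Utf1* (−3.07) were called lower there. Of these markers *Klf4* was called lower in P53-/- 2i (log2 fold change −0.96, limma adjusted p = 0.00782). The sum of 4 neural markers was 31.5 to 34.2 in WT 2i and 22.5 to 27.7 in P53-/- 2i. It was 26.5 to 27.5 in WT serum and 36.01 to 41.1 in P53-/- serum. Most of it came from *Tubb3*, which was called lower in P53-/- 2i (−0.61, limma adjusted p = 0.054). *Tubb3* lay higher in P53-/- serum, with 29.62 and 32.19 FPKM against 18.23 and 19.25 in WT. *Sox1* too lay lower in P53-/- 2i. *Nes* (5.6 and 5.187 against 3.676 and 3.421) and *Pax6* (0.5835 and 0.7306 against 0.21 and 0.1569) lay higher there. Of 8 fibroblast markers 7 stayed under 1 FPKM in every library, *Col3a1* and *Postn* at 0 throughout, and the sum of the list was 0.761 to 1.34 in 2i and 7.73 to 10.5 in serum, most of it from *Thy1*. The sum of 4 trophoblast markers was 63.6 to 119 FPKM in WT 2i, 53.9 to 54.6 in P53-/- 2i and 3.93 to 10.7 in serum, most of it from *Krt8* and *Krt18*, with *Cdx2* at 0.0508 to 1.046 and *Hand1* at 0 to 0.542. Sums of 9 primitive endoderm markers were 2.771 to 4.54 FPKM in WT 2i and 1.676 to 2.411 in P53-/- 2i. In serum they were 2.764 to 3.007 in WT and 1.284 to 1.504 in P53-/-. For 4 markers of mesoderm and primitive streak the sums were 4.501 to 5.324 (WT 2i) and 1.986 to 3.003 (P53-/- 2i). In serum these were 3.243 to 3.425 (WT) and 1.887 to 2.617 (P53-/-). The part of these marker differences and of the small RNA share in the results on culture and on P53 was not tested. In sorted bulk cells, fewer cells that express a gene and less RNA per cell cannot be told apart.

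Between the cultures, 20 of 30 members (66.7%) were called in each genotype, where 55.7% of all genes tested were called in WT and 58.2% in P53-/-. By direction, in WT 16 of the 30 members tested were higher in 2i than in serum and 4 were lower, while 27.2% of all genes tested were called higher and 28.6% lower. In P53-/-, 17 were higher and 3 lower, against 28% and 30.1% of all genes. A gene was called at a limma adjusted p (Benjamini-Hochberg, over all genes tested) under 0.1 and a fold change over 1.5. The median log2 fold change of the members was 0.64 in WT and 0.99 in P53-/-, and that of all genes tested was −0.02 and −0.03. Of the members, 15 were called higher in both genotypes (*Acat2*, *Mvk*, *Mvd*, *Fdps*, *Fdft1*, *Lss*, *Cyp51*, *Tm7sf2*, *Msmo1*, *Nsdhl*, *Ebp*, *Insig1*, *Srebf1*, *Acss2* and *Scd1*) and 3 lower in both (*Insig2*, *Stard4* and *Elovl6*). Calls were made in WT alone for *Idi1* and *Acly* and in P53-/- alone for *Pmvk* and *Scd2*, and 8 members were called in neither (*Sqle*, *Hsd17b7*, *Sc5d*, *Dhcr7*, *Srebf2*, *Scap*, *Acaca* and *Fasn*). The 4 libraries of 2i lay above the 4 of serum for 18 members and below them for 4, where 28.8% and 32% of all genes tested did so.

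**Figure D2:**
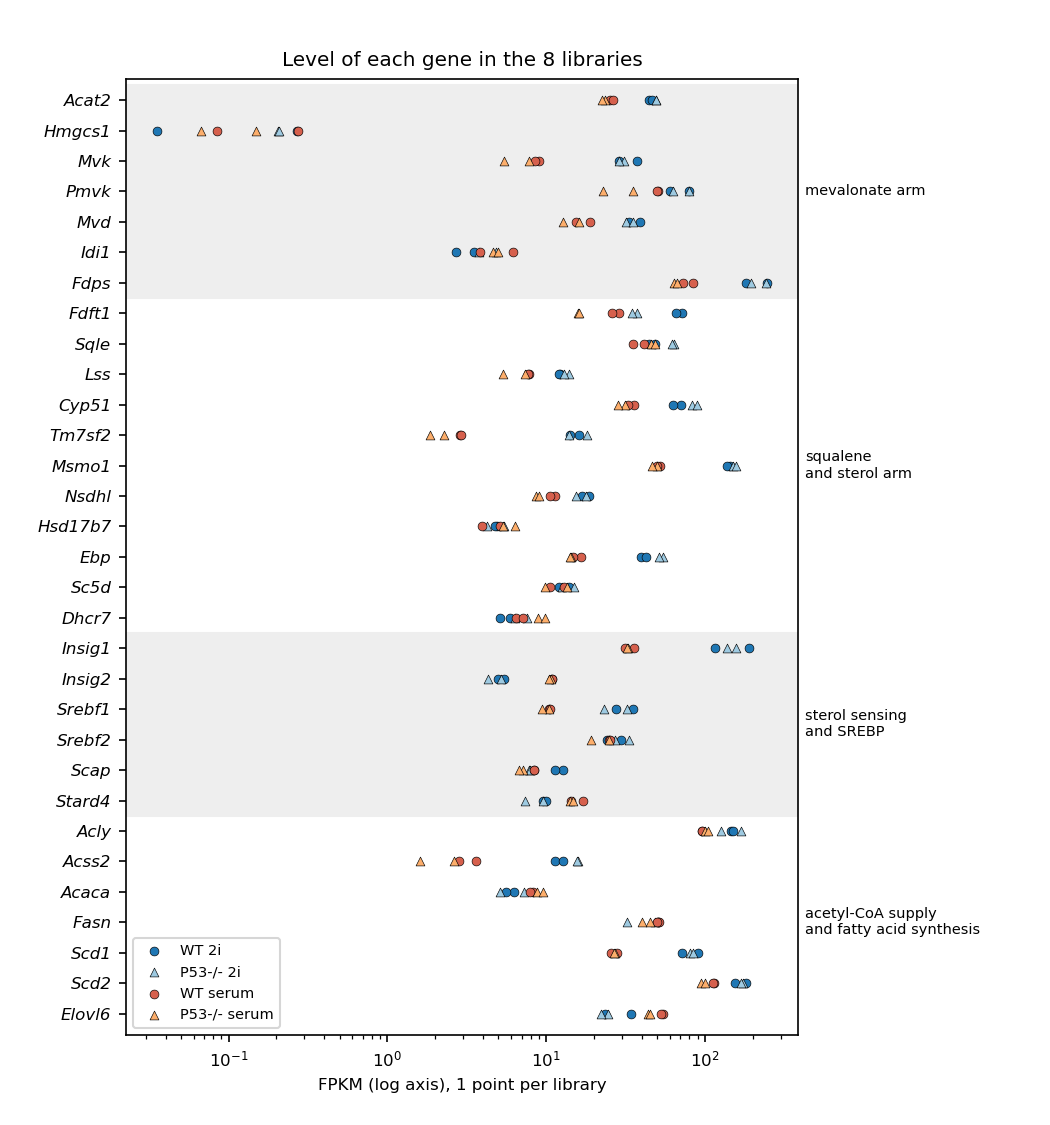
FPKM of each of the 31 members in the 8 libraries on a log axis, 1 point per library, with circles for WT and triangles for P53-/-, blue for 2i and red or orange for serum. For 18 genes all blue points lie to the right of all red and orange points, among them *Fdps*, *Tm7sf2*, *Insig1* and *Acss2*, and *Hmgcs1* lies under 0.5 FPKM throughout.

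In the mevalonate arm, 4 of the 6 genes tested were higher in WT 2i than in WT serum, 1 was lower and 1 was not called. In P53-/- 5 of the 6 were higher and none was lower. Over all genes tested, 27.2% were called higher in WT and 28% in P53-/-, and 28.6% and 30.1% lower. *Fdps*, farnesyl diphosphate synthase, had the highest level of the arm per length of transcript. It was at 248 and 181 FPKM (WT) and 242 and 195 (P53-/-) in 2i, and at 72.6 and 83.9 (WT) and 63.8 and 66.6 (P53-/-) in serum. The groups of the 2 cultures did not overlap, and the log2 fold change was 1.44 in WT and 1.73 in P53-/- (SE 0.182, limma adjusted p = 0.000396 and 0.000149).

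*Mvk*, mevalonate kinase, rose most in this arm. It was at 37.2 and 28.6 FPKM (WT) and 31 and 28.6 (P53-/-) in 2i, and at 9.05 and 8.5 (WT) and 7.77 and 5.41 (P53-/-) in serum. Its log2 fold change was 1.88 in WT and 2.18 in P53-/- (SE 0.199, limma adjusted p = 0.000176 and 8.13e-05). The decarboxylase *Mvd* rose by 1.08 and 1.22, and *Acat2*, the thiolase that joins acetyl-CoA units, by 0.82 and 1.09 on the same scale. For *Acat2*, 50.5% of the 31-base words of its transcript also occur in *Acat3*, so reads could be split between them, and *Acat3* was at most at 0.0944 FPKM.

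*Pmvk*, phosphomevalonate kinase, was at 60.7 and 79.5 FPKM (WT) and 79.9 and 63.3 (P53-/-) in 2i, and at 51 and 50.1 (WT) and 35.2 and 22.9 (P53-/-) in serum. It was called in P53-/- only (log2 fold change 1.32, SE 0.228, limma adjusted p = 0.00155), with 0.46 (adjusted p = 0.117) in WT, and the difference between the genotypes did not pass the test (interaction 0.86, limma adjusted p = 0.328). *Idi1*, isopentenyl diphosphate isomerase, went the other way. In WT it was at 2.7 and 3.53 FPKM in 2i and at 6.22 and 3.84 in serum (log2 fold change −0.65, limma adjusted p = 0.0661). Without WT serum library 1 this was −0.31 (adjusted p = 0.398), and without WT 2i library 1 it was −0.46 (adjusted p = 0.264). The call was also lost with a pseudocount of 1, without the filter on low values, in a fit of the WT groups alone and at an adjusted p under 0.05. *Idi1* shares 22.4% of its 31-base words with other genes.

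*Hmgcs1*, which makes HMG-CoA, was the member left out of the tests. It was at 0.0351 and 0.269 FPKM (WT) and 0.203 and 0.207 (P53-/-) in 2i, and at 0.0844 and 0.272 (WT) and 0.0672 and 0.149 (P53-/-) in serum. Whether the gene model behind the table lowers these values could not be checked, and nothing is read from them.

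In the squalene and sterol arm, 7 of 11 genes were higher in 2i in each genotype and none was lower, with medians of 0.68 in WT and 1.08 in P53-/-. Over all genes tested, 27.2% (WT) and 28% (P53-/-) were called higher. *Tm7sf2*, a sterol reductase, showed the largest rise of all members. It was at 16.2 and 14.2 FPKM (WT) and 18.2 and 13.9 (P53-/-) in 2i, and at 2.88 and 2.89 (WT) and 2.28 and 1.86 (P53-/-) in serum. The log2 fold change was 2.35 in WT and 2.89 in P53-/- (SE 0.187, limma adjusted p = 6.25e-05 and 2.62e-05).

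*Msmo1*, a methylsterol monooxygenase, ran from 137 to 158 FPKM in 2i and from 46.3 to 51.9 in serum. Its log2 fold change was 1.46 in WT and 1.68 in P53-/-. *Ebp*, a sterol isomerase, was at 39.4 and 42.7 FPKM (WT) and 54.4 and 51.1 (P53-/-) in 2i, and at 16.6 and 14.7 (WT) and 14.3 and 14.1 (P53-/-) in serum, which gave 1.39 and 1.89. *Cyp51*, lanosterol demethylase, was at 70.5 and 63 FPKM (WT) and 83.3 and 89.2 (P53-/-) in 2i, and at 35.7 and 32.8 (WT) and 31.4 and 28.3 (P53-/-) in serum, which gave 0.96 and 1.53. For all 3 genes, no library of one culture reached those of the other.

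The squalene synthase *Fdft1* rose by 1.33 in WT and 1.17 in P53-/-. *Lss*, which closes the ring to lanosterol, rose by 0.65 and 1.08, and the sterol dehydrogenase *Nsdhl* by 0.68 and 0.90. The other 4 genes of the arm were not called in either genotype. *Sqle*, squalene epoxidase, ran from 44.4 to 63.7 FPKM in 2i and from 35.3 to 48.5 in serum, which overlap, with log2 fold changes of 0.28 and 0.42 that lay under the fold threshold. *Hsd17b7*, *Sc5d* and *Dhcr7*, enzymes of late steps, had 3.96 to 6.32, 9.79 to 14.9 and 5.1 to 9.77 FPKM over the 8 libraries. *Dhcr7*, the reductase of a final step, had log2 fold changes of −0.30 in WT (95% interval −0.68 to 0.07) and −0.42 in P53-/- (−0.79 to −0.04).

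**Figure D3:**
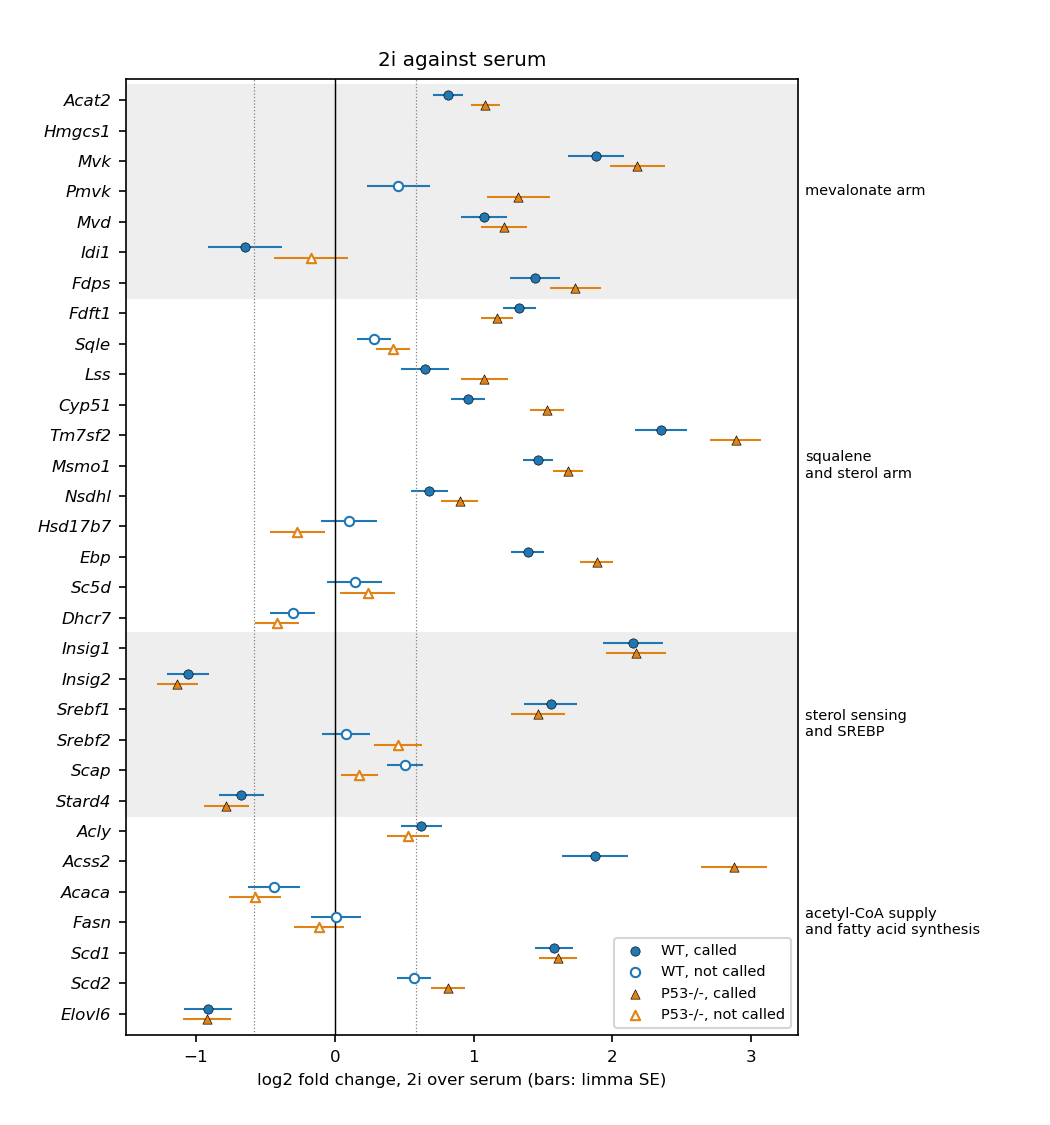
Log2 fold change of 2i over serum for the 30 members tested, circles for WT and triangles for P53-/-, with bars of 1 limma standard error; filled points passed both thresholds and dotted lines mark the fold threshold of 1.5. Most filled points lie right of zero, up to 2.89 for *Tm7sf2*, and *Insig2*, *Stard4*, *Elovl6* and, in WT, *Idi1* lie left of it.

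Of the 6 sterol sensors and SREBP genes, 2 were called higher and 2 lower in each genotype. These shares lie near those of all genes tested, 27.2% higher and 28.6% lower in WT and 28% and 30.1% in P53-/-. *Insig1*, the INSIG gene that SREBP is known to induce, was at 189 and 116 FPKM (WT) and 138 and 157 (P53-/-) in 2i, and at 35.7 and 31.2 (WT) and 32.6 and 32.5 (P53-/-) in serum. Its log2 fold change was 2.15 in WT and 2.17 in P53-/- (SE 0.215, limma adjusted p = 0.000139 and 0.000116). *Insig2*, which acts in the same way, was at 4.98 and 5.43 FPKM (WT) and 4.32 and 5.21 (P53-/-) in 2i, and at 10.9 and 10.9 (WT) and 10.7 and 10.4 (P53-/-) in serum. It was lower in every library of 2i than in any of serum, with log2 fold changes of −1.06 and −1.14 (SE 0.149, limma adjusted p = 0.000637 and 0.000402). The level of *Insig1* was above that of *Insig2* in all 8 libraries.

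*Srebf1*, which encodes the SREBP forms best known for fatty acid genes, was at 35.2 and 27.4 FPKM (WT) and 32.5 and 23.2 (P53-/-) in 2i, and at 10.4 and 10.6 (WT) and 10.4 and 9.37 (P53-/-) in serum. It rose by 1.56 in WT and 1.46 in P53-/- (SE 0.192, limma adjusted p = 0.000352 and 0.000403). *Srebf2*, whose product is best known for cholesterol genes, was at 29.6 and 24.1 FPKM (WT) and 33.1 and 27.1 (P53-/-) in 2i, and at 25 and 25.4 (WT) and 24.8 and 19.2 (P53-/-) in serum. The cultures overlapped, and its log2 fold changes were 0.08 in WT (95% interval −0.32 to 0.49) and 0.46 in P53-/- (0.05 to 0.86). *Stard4*, a sterol transfer protein, ran from 7.39 to 9.95 FPKM in 2i and from 14.2 to 17.1 in serum. Its log2 fold changes were −0.67 in WT and −0.78 in P53-/-, and the first was −0.55 without WT serum library 2, under the fold threshold, and −0.57 with quantile normalization. *Scap*, the escort of SREBP, was not called between the cultures.

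Of the 7 genes of acetyl-CoA supply and fatty acid synthesis, 3 were higher in 2i and 1 lower in each genotype. The share called was 57.1%, near the 55.7% (WT) and 58.2% (P53-/-) of all genes tested. *Acss2*, which makes acetyl-CoA from acetate, was at 11.3 and 12.8 FPKM (WT) and 15.8 and 15.7 (P53-/-) in 2i, and at 2.82 and 3.64 (WT) and 1.61 and 2.62 (P53-/-) in serum. Its log2 fold change was 1.88 in WT and 2.88 in P53-/- (SE 0.24, limma adjusted p = 0.000412 and 5.82e-05). *Acly*, which makes it from citrate, ran from 127 to 170 FPKM in 2i and from 95.5 to 105 in serum. It was called in WT (0.62, 1.54-fold) and stayed under the fold threshold in P53-/- (0.53), and rescaling without small RNA genes put it under the threshold in WT too (0.58).

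The carboxylase and the synthase of fatty acid synthesis were not called. *Fasn*, fatty acid synthase, was at 50.9 and 50.4 FPKM (WT) and 48.3 and 32.3 (P53-/-) in 2i, and at 51.1 and 49.7 (WT) and 45.3 and 40.4 (P53-/-) in serum. Its log2 fold change was 0.01 in WT (95% interval −0.41 to 0.43) and −0.11 in P53-/- (−0.54 to 0.31). *Acaca*, acetyl-CoA carboxylase, lay at 5.14 to 7.22 FPKM in 2i and 7.87 to 9.55 in serum, lower in every 2i library, with log2 fold changes of −0.44 and −0.57 that did not pass the fold threshold. It shares 56.8% of its 31-base words with the predicted gene *Gm5182*.

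The desaturase *Scd1* was at 90.2 and 71.3 FPKM (WT) and 80.7 and 83.9 (P53-/-) in 2i, and at 25.7 and 27.8 (WT) and 27.2 and 26.7 (P53-/-) in serum. It rose by 1.58 and 1.61 (SE 0.136, limma adjusted p = 8.05e-05 and 6.1e-05). *Scd2*, its relative, ran from 155 to 182 in 2i and from 95.1 to 114 in serum, with 0.57 in WT, under the fold threshold, and 0.82 in P53-/-, past it. The elongase *Elovl6* went the other way, at 34.2 and 23.6 FPKM (WT) and 24.6 and 22.3 (P53-/-) in 2i, and at 54.3 and 53 (WT) and 44 and 44.8 (P53-/-) in serum. Its log2 fold changes were −0.91 and −0.92 (SE 0.173, limma adjusted p = 0.00272 and 0.00239).

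Set beside the promoters, 11 of the 12 genes with a promoter that were called higher in both genotypes held a CCAAT box, all but *Acat2*. Of the 7 with a promoter that were called in neither genotype, 5 held it. Of the 2 called lower in both, *Insig2* held it and *Elovl6* did not. Of the 2 called in WT alone, *Idi1* held it and *Acly* did not, and *Pmvk*, called in P53-/- alone, held it. Over all members with a promoter the share was 80%, and over tested genes, whatever their call, 41.5%. These counts are small and were not tested.

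Genes around these pathways were counted in the same way. For comparison, 27.2% of all genes tested were called higher and 28.6% lower in WT, and 28% and 30.1% in P53-/-. Of 18 other steps of the same pathways, 9 were higher and 2 lower in WT 2i than in WT serum, and 11 and 1 in P53-/-. The mitochondrial citrate carrier *Slc25a1* rose most in WT (2.21, limma adjusted p = 6.97e-05) and *Ggps1*, geranylgeranyl diphosphate synthase, fell most (−1.18, adjusted p = 0.000334). Of 15 genes of SREBP processing and of sterol uptake, transport and storage, 6 were higher and 4 lower in WT and 5 and 4 in P53-/-. Among them *Npc2*, a lysosomal cholesterol carrier, rose by 2.70 and *Mbtps2*, a protease that cleaves SREBP, fell by 1.70 in WT. Of 6 genes of LXR and sterol efflux, 4 were higher and none lower in WT, with *Abcg1*, a sterol exporter, at 2.21, and in P53-/- 3 were higher and 1 lower. The lowest of the 6 in WT was *Abca1* (−0.08), which was not called. Of 12 genes of fatty acid oxidation, 10 were tested, and 4 were higher and 1 lower in WT and 6 and 1 in P53-/-. There the carnitine carrier *Slc25a20* rose by 1.56 and the dehydrogenase *Acadl* had −2.33 on the log2 scale in WT.

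**Figure D4:**
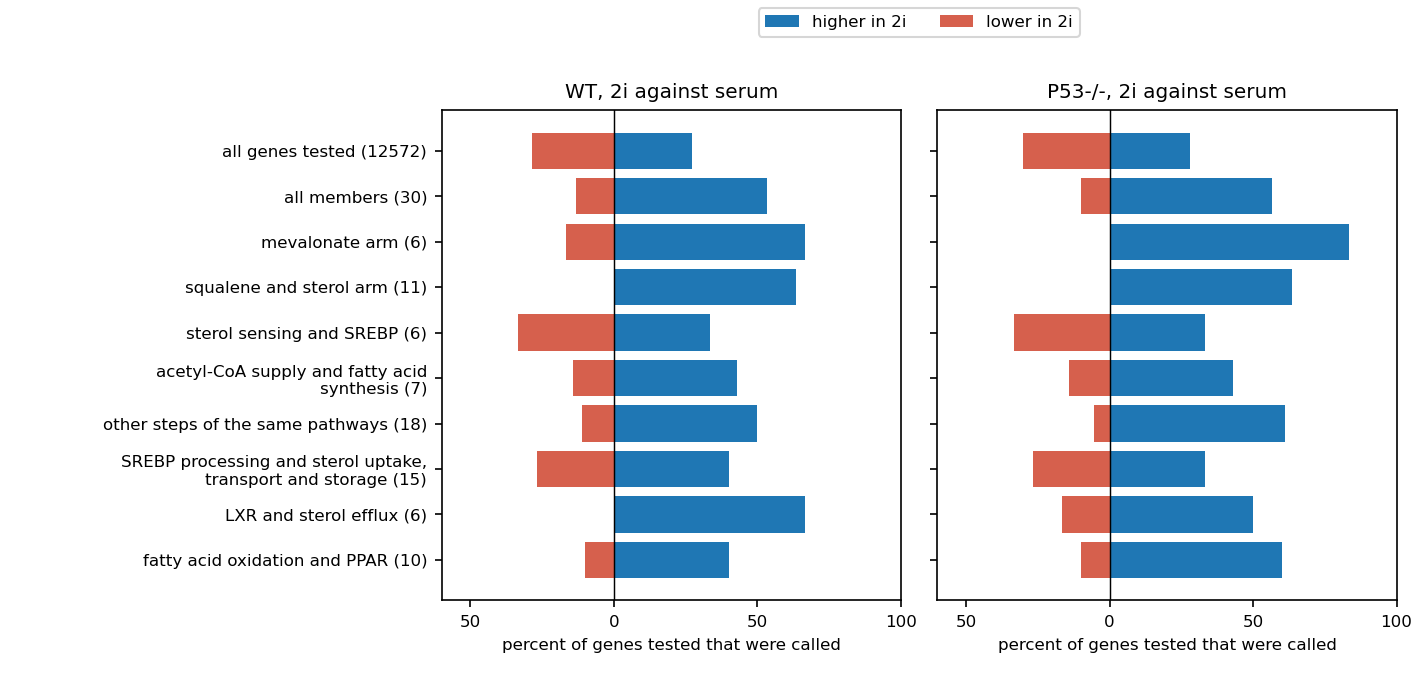
Percent of the genes tested that were called higher (blue, right) or lower (red, left) in 2i than in serum, for all genes, for all members, for the 4 roles of members and for the 4 lists of other genes, with the number tested in parentheses. All members reach 53.3% higher in WT and 56.7% in P53-/-, against 27.2% and 28% of all genes tested.

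Between P53-/- and WT, 6.67% of the members were called in 2i, against 10.3% of all genes tested. In serum 3.33% were called, against 1.02% of all genes. With 30 members, these shares rest on 2 genes in 2i and 1 in serum. In 2i, none of the 30 members was called higher and 2 were called lower (*Fdft1* and *Scap*), where 4.36% of all genes tested were higher and 5.97% lower in P53-/-. In serum, none was higher and 1, *Fdft1*, was lower, where 0.135% and 0.883% of all genes were. At an unadjusted p under 0.05 there were 5 members in 2i (16.7%, against 25.2% of all genes tested) and 7 in serum (23.3%, against 11.3%).

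*Fdft1*, which commits isoprenoids to sterols, was called in both cultures. It fell, from WT to P53-/-, from 71.9 and 65.9 to 37.1 and 35 FPKM in 2i, and was at 28.8 and 25.9 (WT) and 15.9 and 16.1 (P53-/-) in serum. The P53-/- libraries lay below the WT libraries in each culture. The log2 fold change was −0.93 in 2i (SE 0.116, limma adjusted p = 0.00548), 1.91-fold lower. In serum it was −0.77 (SE 0.116, limma adjusted p = 0.0362), 1.71-fold lower. Leaving out any serum library ended the call in serum, with adjusted p values of 0.105 and 0.169 without P53-/- library 1 or 2 and 0.279 and 0.152 without WT library 1 or 2. So did a fit of the serum groups alone (0.192) and a fit without the trend (0.11). *Fdft1* shares 16.5% of its 31-base words with the predicted gene *Gm6781*.

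*Scap* fell, from WT to P53-/-, from 12.7 and 11.3 to 7.79 and 7.9 FPKM in 2i, and was at 8.37 and 8.44 (WT) and 7.17 and 6.71 (P53-/-) in serum. P53-/- lay lower in both cultures. The log2 fold change was −0.60 in 2i (SE 0.133, limma adjusted p = 0.0393), 1.52-fold and so just past the fold threshold, and −0.27 in serum (adjusted p = 0.483). The call in 2i was lost without P53-/- 2i library 1 (limma adjusted p = 0.127) or 2 (0.146), without WT 2i library 1 (0.11), and without WT serum library 1 (0.104) or 2 (0.108). It was also lost with a pseudocount of 1, where the fold change lay under the threshold, and in a fit of the 2i groups alone (0.173). *Sqle*, the enzyme after *Fdft1*, was at 44.4 and 48.4 FPKM in 2i without the deletion and at 63.7 and 62.4 with it. The log2 fold change was 0.44 (limma adjusted p = 0.0708), under the fold threshold. *Sqle* lay higher in P53-/- serum too, at 45.9 and 48.5 FPKM against 41.1 and 35.3 in WT serum (0.31, limma adjusted p = 0.397).

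**Figure D5:**
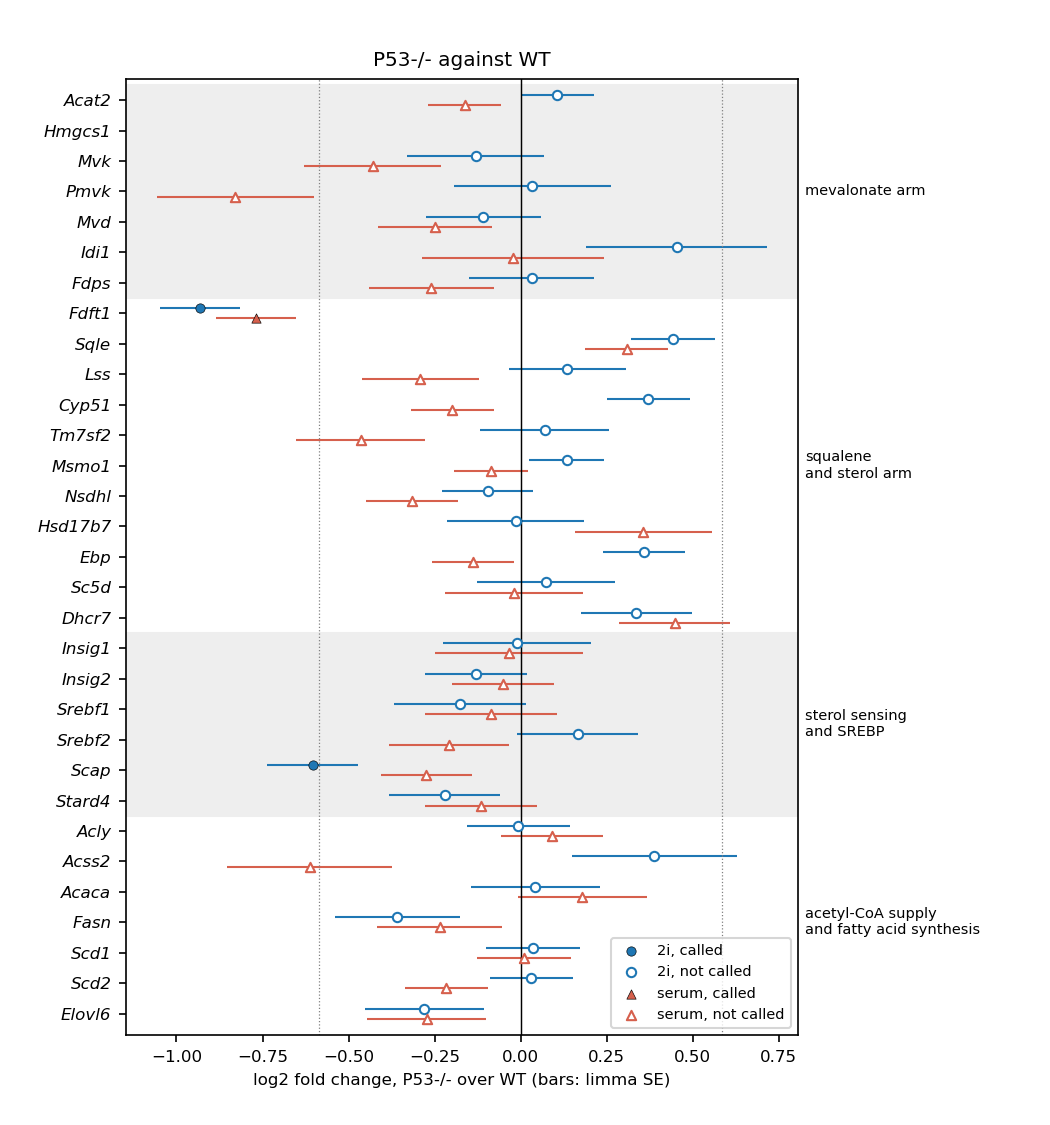
Log2 fold change of P53-/- over WT for the 30 members tested, circles for 2i and triangles for serum, with bars of 1 limma standard error; filled points passed both thresholds and dotted lines mark the fold threshold of 1.5. The filled points are *Fdft1* at −0.93 in 2i and −0.77 in serum and *Scap* at −0.60 in 2i. Of the 30 triangles, 24 lie left of zero, where 5921 of all 12572 genes tested lay below 0 in serum.

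In serum most members lay a little lower in P53-/-. The log2 fold change was below 0 for 24 of 30 members and for 5921 of all 12572 genes tested. Members had a median of −0.18, against 0.02 over all genes tested. The median was −0.11 without P53-/- serum library 2 and −0.21 without library 1. Both P53-/- libraries lay below both WT libraries for 18 members and above them for 5, where 21.8% and 25.7% of all genes tested did so. With 2 libraries on each side, the smallest two-sided p of an exact permutation test is 0.33, so the separation of a single gene cannot pass such a test. *Pmvk* was lowest (−0.83, limma adjusted p = 0.237), followed by *Fdft1* and *Acss2* (−0.61, adjusted p = 0.395).

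In 2i the same count was 4 members below and 9 above, where 24.7% and 29% of all genes tested lay so. The median of the members was 0.03 in 2i, and it was −0.09 with quantile normalization.

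The effect of P53 was compared between the cultures with the interaction term, and none of the 30 members was called in either direction, while 0.103% of all genes tested were called in each. At an unadjusted p under 0.05 there were 4 members (13.3%), a share like that of all genes tested (13.1%). They were *Acss2* (difference of log2 fold changes 1.002, SE 0.339, limma adjusted p = 0.292), *Pmvk* (0.86, adjusted p = 0.328), *Cyp51* (0.57, adjusted p = 0.241) and *Ebp* (0.50, adjusted p = 0.292). For *Acat2*, *Lss*, *Cyp51*, *Msmo1*, *Ebp* and *Acss2*, both P53-/- libraries lay above WT in 2i and below WT in serum, a pattern of 3.82% of all genes tested, and no member showed the reverse, which 3.79% of all genes did. In *Cyp51*, for one, P53-/- exceeded WT by 0.37 in 2i and was under it by 0.20 in serum, and neither difference was called.

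Among the other genes of the pathways, 3 were called for P53, all from the 15 genes of SREBP processing, uptake, transport and storage. Of these 15, 20% were called in 2i (1 higher and 2 lower), against 10.3% of all genes tested. Calls in serum were 6.67% (1 lower), against 1.02% of all genes. None was called among the 18 other steps, the 6 genes of LXR and efflux and the 10 tested genes of fatty acid oxidation. *Lpin1*, a phosphatidate phosphatase, fell, from WT to P53-/-, from 9.06 and 12.2 to 4.74 and 3.52 FPKM in 2i, and was at 7.27 and 6.24 (WT) and 1.52 and 1.3 (P53-/-) in serum. It was lower in both cultures, by 1.34 (SE 0.226, limma adjusted p = 0.0172) and 2.18 (adjusted p = 0.00601) on the log2 scale. The adjusted p was 0.102 in 2i without P53-/- 2i library 2 and 0.114 in serum without WT serum library 1, and 0.139 in a fit of the 2i groups alone. *Fabp5*, a fatty acid binding protein, was higher in P53-/- 2i, with 79.3 and 60 FPKM against 24.8 and 27.8 (log2 fold change 1.39, SE 0.191, limma adjusted p = 0.0079). *Soat1*, which esterifies cholesterol, was lower in P53-/- 2i, with 1.75 and 1.16 FPKM against 2.91 and 3.47 (−1.10, SE 0.267, limma adjusted p = 0.0513), and its adjusted p was 0.228 without P53-/- 2i library 2, 0.148 without WT 2i library 2, and 0.13 and 0.132 without WT serum library 1 or 2. A fit of the 2i groups alone gave 0.187. *Soat1* was at 6.5 and 4.29 FPKM in P53-/- serum against 7.14 and 6.83 in WT serum, which was not called (−0.40, limma adjusted p = 0.616). Its interaction did not pass the test either (limma adjusted p = 0.476).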

How the data were processed

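Expression in G1-phase ESCs of both genotypes, grown in serum or 2i, was taken from the FPKM table that the authors deposited (fragments per kilobase of transcript, scaled by mapped fragments, 1 column per library). The submitters' processing notes name STAR, Cufflinks, DESeq2 and mm9, without roles or versions. Column names give genotype and culture only, so libraries were grouped by name and carry no replicate number.

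Genes averaging at least 0.5 FPKM (12572) were transformed to log2(FPKM + 0.1) and fitted with limma 3.58.1 (R 4.3.3) as 4 groups at once, with eBayes and a trend. Benjamini-Hochberg adjustment ran over all of them. Fold changes are on that scale and understate changes of low genes. Calls needed an adjusted p under 0.1 and a fold over 1.5, and 95% intervals come from the same fit. The procedure was tested on simulated data. Promoters were those of RefSeq (GRCm38.p6), and 31-base words were compared between annotated transcripts of GRCm38. Figures used Python 3.11.15 and matplotlib 3.10.9.

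The members and lists were chosen with earlier results of these data known. All 31 members are named. Other pathway genes are named if called for P53 or in the interaction, or if they rose or fell most in their list in WT. *Nr1h3* is named besides, as a call near the filter on low values. Alternatives were 10 settings of pseudocount, filter, scaling, fit and threshold, and each of the 8 libraries left out in turn. FPKM values hold no counts, so no counting interval is given.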

Additional observations from a re-analysis of the deposited data

How the results depend on the processing

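With 2 libraries per group, the calls for P53 rest on a spread shared by 4 groups. No paired analysis was possible because the columns carry no replicate numbers. Of the 20 members called between the cultures in P53-/-, none lost its call or changed sign under the 10 settings or the 8 omissions of a library, and in WT the calls of *Idi1*, *Stard4* and *Acly* were each lost under at least 1 (9 of 360 recomputed values) and none changed sign. Members called between the cultures numbered 19 to 22 in WT and 20 to 22 in P53-/-. Rescaling without small RNA genes moved the median of all genes in P53-/- from −0.03 to −0.11, and that of the members from 0.99 to 0.91. For P53 in 2i, 1 member was called in place of 2 with a pseudocount of 1 and in a fit of only the groups compared, and 1 to 2 without a library. For P53 in serum, 0 members in place of 1 were called in a fit of only the groups compared and without the trend, and 0 to 1 without a library. Over all genes, 1299 were called for P53 in 2i, with 193 in a fit of only the groups compared, 771 at an adjusted p under 0.05 and 491 to 1224 without a library, the lowest without P53-/- 2i library 2. In serum 128 were called, with 37, 73 and 52 to 148 under the same changes, the lowest without WT serum library 2. In the interaction 26 were called, with 66 at a pseudocount of 1, 40 without the trend, 16 at an adjusted p under 0.05 and 19 to 69 without a library, the highest without WT 2i library 1, and no member was called in any of these. Without a library, 6251 to 7047 genes were called between the cultures in WT and 6893 to 7397 in P53-/-. The causes of these changes were not tested.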
